A study of Talinum fruticosum with 24 samples.

Results

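The early transcript response of leaves to abscisic acid (ABA) was examined 80 min after spraying in Talinum triangulare, also named Talinum fruticosum. The comparison rests on 4 of the 24 libraries of the series, chosen by their titles: 2 from leaves sprayed with 200 µM ABA and 2 from leaves sprayed with a mock solution. Both solutions held methanol and Tween-20, both groups were watered alike, and the first spray came 4 h into a 12 h light period. All 4 libraries at 80 min preceded the second spray, which followed 4 h after the first. Plants were 2 months old. The replicates of a group were independent plants, and the 2 sprayed leaves of a plant made up its sample, so each group held n = 2 plants. The other 20 libraries covered both treatments at 40, 160, 320, 640 and 1280 min and served for the common estimate of spread and for the course of mock leaves over the day.

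ABA is the plant hormone of the drought response. In land plants it binds soluble receptors that then block a class of protein phosphatases, which sets protein kinases free to activate transcription factors of ABA-responsive genes. Talinum is a facultative CAM plant: under drought or ABA it can move from ordinary C3 photosynthesis towards crassulacean acid metabolism, in which stomata open at night and the carbon dioxide taken up then is held as malic acid until day. The files give identifiers that are not paired with gene names. The receptors, phosphatases and CAM enzymes can therefore not be reported by name, leaf marker genes could not be checked, and transcripts are described as features, by size of change, abundance and course over the day.

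Groups follow the labels as the submitters later corrected them. The 4 libraries at 80 min held 21241889 to 26846579 counts, within the series' range of 16577222 to 26846579, and detected 18389 to 18584 features each. All levels are in CPM, that is counts relative to a TMM-scaled library size, and 1 CPM corresponded to between 15.8 and 20.5 counts in these libraries. A feature was called when its Benjamini-Hochberg adjusted p from edgeR's quasi-likelihood test, over 17561 features, was below 0.05. The root-mean-square log2 difference between libraries was 0.578 between the 2 mock plants and 0.563 between the 2 ABA plants. Between treatments it ran from 0.626 (mock replicate 1 and ABA replicate 1) to 0.751 (mock replicate 2 and ABA replicate 2). All 4 distances between treatments were above the 2 within them, by a small margin. The SD of the log2 difference between replicates was 0.578 for mock and 0.563 for ABA at 80 min, against 0.495 and 0.422 at 40 min.

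By 80 min, the leaves showed a response dominated by increases of moderate size. ABA raised 716 features and lowered 323, out of 17561 tested (5.92% called in all, 4.08% higher and 1.84% lower). The median log2 fold change was 1.01 among the higher features, with an interquartile range of 0.71 to 1.45, and -0.88 among the lower ones, with a range of -1.32 to -0.66. The median standard error of a called feature was 0.20 in either direction. Over all features tested the median log2 fold change was 0.00. In each called feature the pair of ABA libraries lay wholly above or wholly below the mock pair, which held for 21.0% and 20.1% of all features tested (41.1% together). An unadjusted p below 0.05 was found for 3330 features. In whole leaves, fewer cells of a type and less RNA per cell cannot be told apart.

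Small changes were the most frequent class. Increases outnumbered decreases in every class of size, as they did among all called features (68.9% higher). Of the 716 higher features, 355 (49.6%) changed less than 2-fold, 262 between 2- and 4-fold, 63 between 4- and 8-fold and 36 by 8-fold or more. The corresponding numbers among the 323 lower features were 197 (61.0%), 95, 18 and 13. Changes of at least 2-fold were found in 1438 features tested, of which 487 were called, so that a large fold change alone often did not pass the test. A group of 2 higher features had 0 counts in both mock libraries, and for these the fold is a bound against a floor of 3 counts over the group, which covers counting error only. No lower feature was without counts in both ABA libraries.

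**Figure D1:**
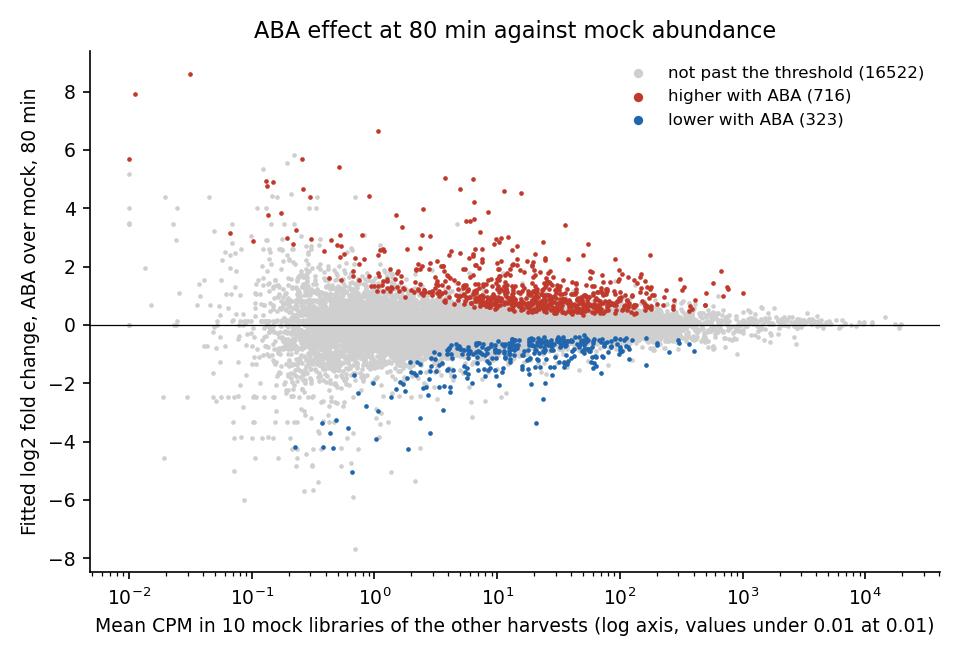
Each point is 1 of 17561 features, with its mean CPM over the 10 mock libraries of the other 5 harvests on a log axis and its fitted log2 fold change of ABA over mock at 80 min. The 716 red points passed the threshold as higher and the 323 blue points as lower; fitted values of features with 0 counts in a group, among them 2 of the red points, depend on the prior count and are no bounds.

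By fold, the strongest increases were in features with a low mock level, which the choice of features favours. Under 1 CPM in mock leaves of the other harvests, the median standard error was 0.71. All 37 higher features there changed at least 2-fold. The mock libraries at 80 min also helped to set the 8-fold class. The 36 features raised 8-fold or more had a median of 0.444 CPM in mock and 10.3 CPM in ABA leaves at 80 min, and their median over mock leaves of the other harvests was 1.29 CPM. In 28 of the 36, both ABA libraries lay above all 12 mock libraries of the day, against 2.95% of all features tested. The 80 min libraries chose these features, which favours that count. The increase was also seen at later harvests. Of the 36, 33 were called higher at 160 min, where 8.55% of all features were. From 320 to 1280 min this held for 29, 31 and 29 of them, against 13.6%, 11.2% and 23.3% of all features. The libraries of these harvests had no part in choosing the features, beyond the common estimate of spread. At 40 min, 11 of the 36 had already been called higher (0.125% of all features were), with a median log2 fold change of 1.60 over the 36.

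The strongest decreases were few. The 13 features lowered 8-fold or more had a median of 3.33 CPM in mock leaves at 80 min, 0.193 CPM in ABA leaves and 0.608 CPM in mock leaves of the other harvests. Their median mock level at 80 min was thus above that of the other harvests, which choosing features on these same libraries favours. In 2 of the 13 both ABA libraries lay below all 12 mock libraries, against 1.95% of all features tested, a count that the same choice favours. At 160 min 5 of the 13 were called lower (5.06% of all features were) and at 320 min 3 (12.2% of all). At 640 and 1280 min 2 each were called lower, where 13.6% and 22.2% of all features were, so these later counts do not stand apart from the whole set. These values rest on few counts in ABA leaves.

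Most responsive features were of middling abundance, and few of the most abundant were called. Classes were set by the mean CPM in the 10 mock libraries of the other harvests, so that the libraries compared did not define them. CPM is not divided by transcript length, which the files do not give, so the classes rank features by reads and not by molecules. Among the 7448 features between 10 and 100 CPM, 403 (5.41%) were higher and 186 (2.50%) lower. Between 100 and 1000 CPM, 71 (6.02%) of 1180 were higher and 22 (1.86%) lower. Of the 158 features at 1000 CPM or more, 1 was higher and none was lower, a called share of 0.633% against 5.92% over all features. That class had a median log2 fold change of 0.08 and a median standard error of 0.27, against 0.17 in the class below it. Grouped by mock libraries at 80 min instead, the top class held 0 called features.

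Smaller shares were called at low abundance, where standard errors were larger. Among 2487 features under 1 CPM, 37 (1.49%) were higher and 12 (0.483%) lower, each by at least 2-fold, with median log2 fold changes of 2.96 and -3.46. Their median standard error was 0.71. Between 1 and 10 CPM, 204 (3.24%) of 6288 were higher and 103 (1.64%) lower, with a median standard error of 0.30. Changes of 2-fold or more made up 144 of these increases and 62 of these decreases. Increases outnumbered decreases in each class below 1000 CPM, while the class above that held only 1 called feature.

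**Figure D2:**
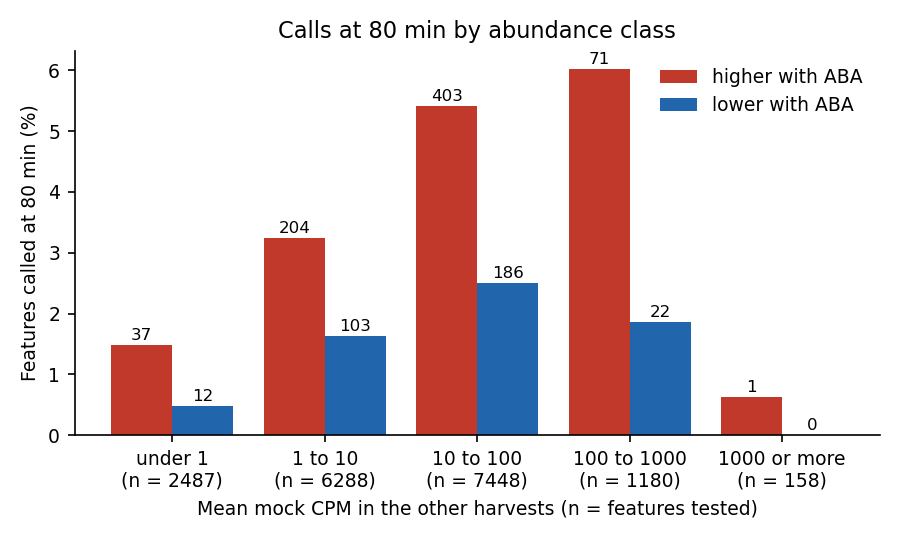
Bars give the share of features in each abundance class called higher (red) or lower (blue) with ABA at 80 min, with the number of features above each bar. The share of higher features runs from 1.49% under 1 CPM to 6.02% between 100 and 1000 CPM and is 0.633% above that.

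In reads, the gain exceeded the loss. Summed over the 716 higher features, mock leaves at 80 min held 25262 and 23939 CPM, and ABA leaves 50171 and 51635 CPM. Over the 323 lower features, mock leaves held 13202 and 14210 CPM, and ABA leaves 8013 and 7714 CPM. These sums describe features chosen on the same libraries. The mean gain was 26302 CPM and the mean loss -5842 CPM. The 10 features with the largest gain made up 21.9% of it and the first 50 made up 46.8%. A small part of the 716 features thus carried much of the gain. For the loss, the corresponding shares were 27% and 58.1%.

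The feature that gained most was KMT19353. It stood at 370 and 340 CPM in the 2 mock libraries and at 1320 and 1210 CPM in the 2 ABA libraries at 80 min. The groups lay far apart, with a mean of 355 ± 21.4 CPM in mock and 1270 ± 71.6 CPM in ABA leaves (SD, n = 2), and the log2 fold change was 1.83 ± 0.26 (SE, with an adjusted p of 0.000246 from edgeR). At 40 min the same feature had 652 ± 16.7 CPM in mock and 697 ± 118 CPM in ABA leaves, a log2 fold change of 0.10 ± 0.26 (edgeR adjusted p = 1). The mock level was thus lower at 80 than at 40 min and the ABA level higher. The effect at 80 min exceeded that at 40 min by 1.74 ± 0.37 on the log2 scale (SE; edgeR adjusted p = 0.0353). Choosing the feature by its gain at 80 min favours such a difference. In mock leaves of the next morning the feature reached 2430 and 2080 CPM, above the ABA level at 80 min.

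KMS95705, the next in gain, lay above the whole range of mock leaves. It had 205 and 196 CPM in mock and 1020 and 1110 CPM in ABA leaves at 80 min, while the highest of the 12 mock libraries of the day held 417 CPM. The log2 fold change was 2.41 ± 0.16 (SE; edgeR adjusted p = 1.84e-08). Unlike KMT19353, it was already called at 40 min, with 278 ± 16.5 CPM in mock and 561 ± 40.8 CPM in ABA leaves (SD, n = 2; log2 fold change 1.01 ± 0.15, edgeR adjusted p = 0.00322). The effect grew by 1.40 ± 0.22 on the log2 scale from 40 to 80 min (SE; edgeR adjusted p = 0.00403), which its choice by the gain at 80 min also favours. From 80 to 160 min the change of the effect was 0.40 ± 0.22, which did not pass the threshold (edgeR adjusted p = 0.435).

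Losses of single features were smaller. KMT00848 had 612 and 729 CPM in mock and 361 and 355 CPM in ABA leaves, and its log2 fold change was -0.90 ± 0.17 (SE, with an adjusted p of 0.00261 from edgeR). Its call was lost in 2 of 15 alternatives, of which the fit to the 4 libraries at 80 min alone gave -0.91 (edgeR adjusted p = 0.054). Without a single 80 min library its log2 fold change stayed between -1.02 and -0.77. At 40 min the log2 fold change was -0.07 ± 0.17, with 565 ± 25.3 CPM in mock and 539 ± 22 CPM in ABA leaves (SD, n = 2; edgeR adjusted p = 1). At 320 min, after the second spray, it was -2.58 ± 0.18 (SE, with an adjusted p of 2.22e-08 from edgeR). Its ABA level at 80 min still lay within the mock range of the day, where 318 and 382 CPM were measured at 160 min. In the other alternative without the call, against the mean of mock leaves at 40 and 160 min in place of those at 80 min, its log2 fold change was -0.31 and did not pass the threshold (edgeR adjusted p = 0.204).

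KMT16447 had 453 and 580 CPM in mock and 313 and 346 CPM in ABA leaves at 80 min. The groups did not overlap, but the log2 fold change of -0.65 ± 0.18 only just passed the threshold (SE; edgeR adjusted p = 0.0447). Its call was lost in 10 of 15 alternatives, among them those without mock replicate 2 (log2 fold change -0.46, edgeR adjusted p = 0.341) and without ABA replicate 1 (-0.58, adjusted p = 0.216), within a range of adjusted p from 0.0112 to 0.399.

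**Figure D3:**
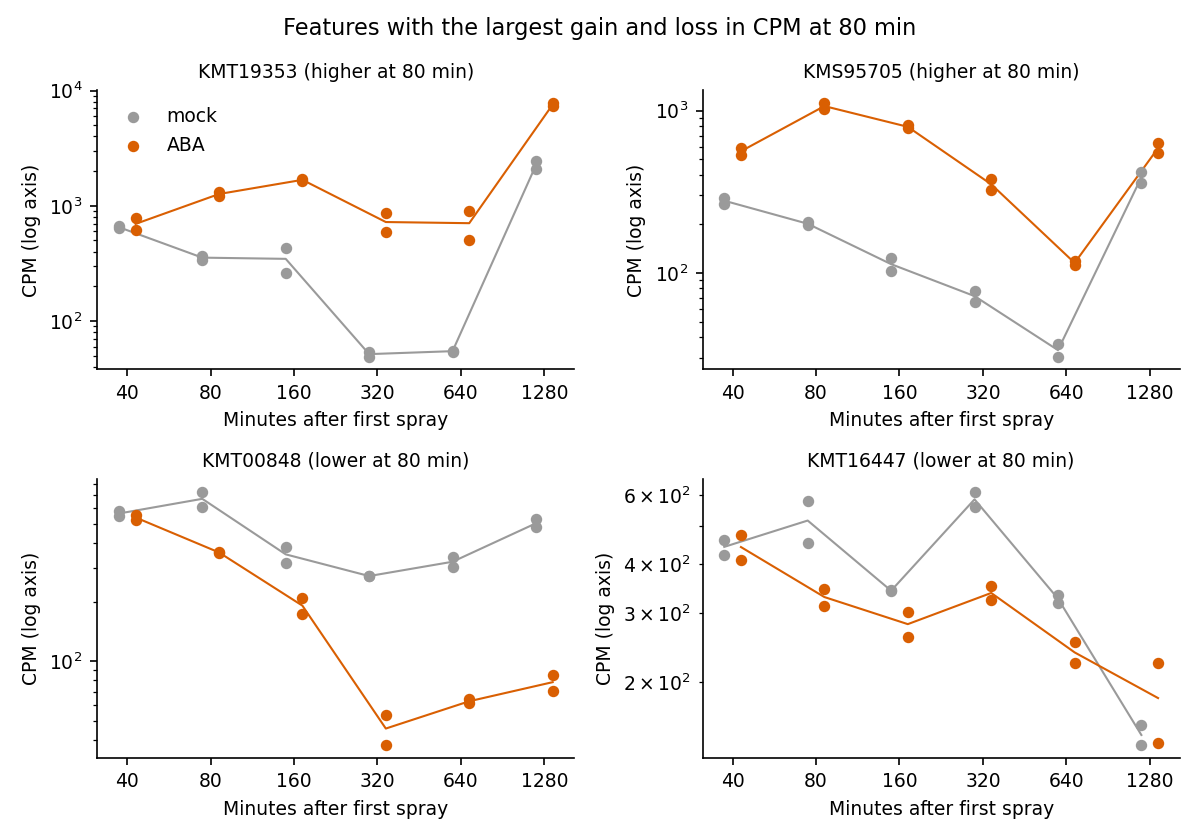
Points are single libraries and lines join the group means, with CPM on a log axis and the 6 harvests evenly spaced; grey is mock and orange is ABA. At 80 min KMT19353 and KMS95705 lie above mock in both ABA libraries (1210 to 1320 and 1020 to 1110 CPM), and KMT00848 and KMT16447 lie below it.

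The higher features were for the most part those that mock leaves express most in the early morning. The course of mock leaves was taken from the 5 harvests other than 80 min, and 13802 features (78.6% of those tested) changed along it. Of the 716 higher features, 673 changed along it, and 403 of the 673 (59.9%) had their highest mock mean at 1280 min, which is 1.33 h into the next light period. Among all features with a changing course this held for 4555 (33.0%). Mock harvests at 160 and 320 min held the maximum of 38 and 43 higher features (5.65% and 6.39%, against 9.43% and 21.9% of all). The most frequent minimum of the higher features was the harvest at 320 min, which is 9.33 h into the light period, in 249 (37.0%, against 20.1% of all).

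The lower features were spread over other harvests. Of 302 with a changing mock course, 79 (26.2%) were highest in mock leaves at 40 min and 96 (31.8%) at 320 min, against 14.7% and 21.9% of all. Only 40 (13.2%) were highest at 1280 min, and 155 (51.3%) were lowest then, against 34.0% of all. These shares describe features and are not tested, since features share their libraries. Called features changed along the mock course more often than the whole set, with the same estimate of spread in both tests. The shares were 94.0% of those raised and 93.5% of those lowered, against 78.6%, which is not matched by abundance. Among all features it rose from 1075 of 2487 under 1 CPM to 1111 of 1180 between 100 and 1000 CPM. Between 10 and 100 CPM, 391 of 403 raised, 177 of 186 lowered and 6610 of all 7448 features changed along the course.

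The morning maximum was found across abundance classes and sizes of change. Under 1 CPM it held for 52.4% of the higher features (33.5% of all features there). The share was 63.5% of the higher features between 1 and 10 CPM (29.5% of all features there), 56.3% between 10 and 100 CPM (34.4% of all) and 71.8% between 100 and 1000 CPM (41.0% of all). By size of change, the share was 52.4% of higher features under 2-fold, 66.3% from 2- to 4-fold, 67.2% from 4- to 8-fold and 80.0% (20 of 25) at 8-fold or more. With or without a changing course, 58.2% of the 716 were highest at 1280 min, against 31.4% of all features tested. Without any single mock library this share stayed between 57.3% and 58.7%. Scaled to library size only, 43.4% of the higher features and 16% of all were highest then. Among features called without a single 80 min library, the share lay between 48.5% without mock replicate 1 and 64.4% without mock replicate 2.

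Summed over the 716 features, mock leaves at 1280 min held 66216 and 61945 CPM, more than the 50171 and 51635 CPM of ABA leaves at 80 min. In 299 of the 716 (41.8%) the ABA mean at 80 min was below the mock mean at 1280 min, against 50.4% of all features tested. Others left the daily range of mock leaves: in 239 (33.4%) both ABA libraries lay above all 12 mock libraries, against 2.95% of all features tested. Of the 323 lower features, 46 (14.2%) lay below all 12 mock libraries in both ABA libraries, against 1.95% of all. The ABA and mock libraries at 80 min took part in both the calls and these counts. Each called feature already lay wholly above or below the mock pair at 80 min, which held for 41.1% of all features. The shares over all features are therefore no matched background.

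**Figure D4:**
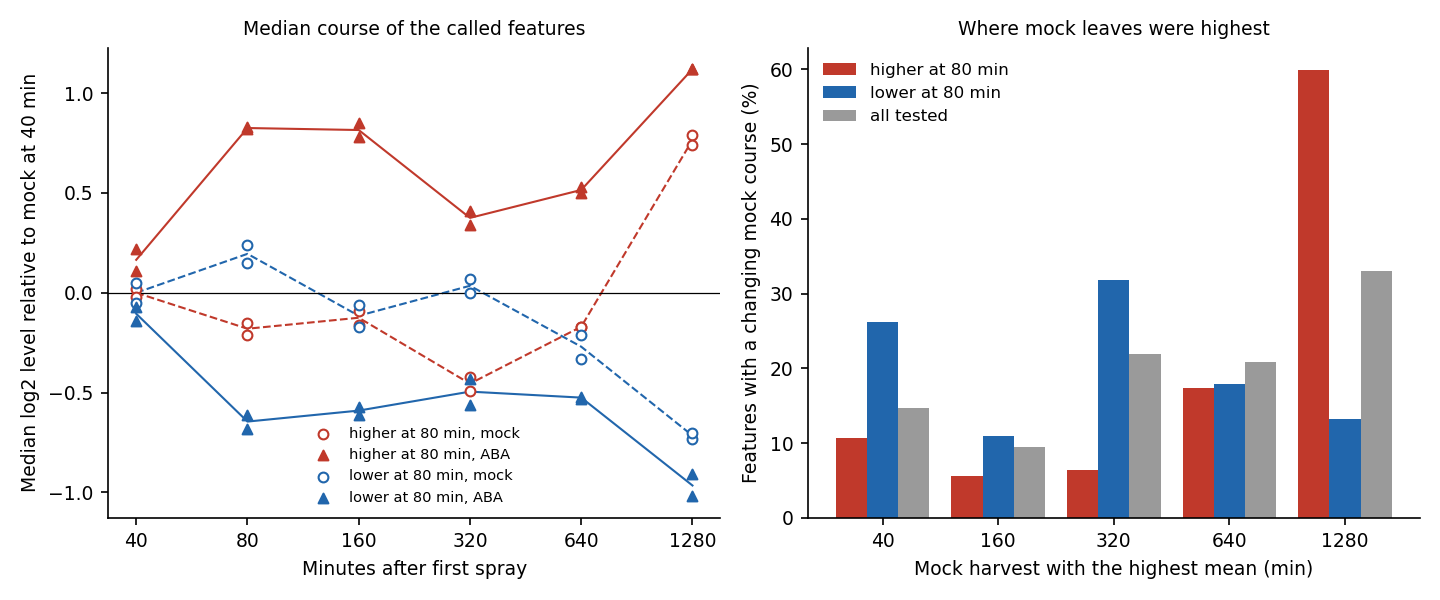
Left, the median log2 level of the 716 higher (red) and 323 lower (blue) features relative to mock at 40 min, with 1 point per library (open circles mock, triangles ABA) and lines through the group means. Right, the share of features with a changing mock course whose highest mock mean fell at each harvest, where 59.9% of the higher features and 33.0% of all peak at 1280 min.

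Around midday itself, mock leaves changed widely. Between mock leaves at 40 and 160 min, 4732 features differed (26.9% of those tested), 2178 higher (12.4%) and 2554 lower (14.5%) at 160 min. The share that fell was above this background in both groups of ABA-responsive features: 185 (25.8%) of the features ABA raised and 82 (25.4%) of those it lowered. For the share that rose, the values were closer to it, with 104 (14.5%) and 52 (16.1%). Scaling to library size alone moved the median of all features in this comparison from 0.00 to 0.56 and gave 7737 higher and 765 lower, so directions here are relative to the TMM scaling. Leaving out mock replicate 1 or 2 at 40 min gave 2993 and 3089 differences, and leaving out mock replicate 1 at 160 min gave 2508. Along the axis from mock at 40 min (0) to mock at 160 min (1), the mock libraries at 80 min lay at 0.38 and 0.44 and the ABA libraries at 0.38 and 0.35. The highest ABA library and the lowest mock library thus stood at the same position at 80 min, to the digits given.

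Many of the lower features stood high in the mock libraries at 80 min. Among the 323 lower features, 172 (53.3%) had a mock mean at 80 min above those of both 40 and 160 min, against 26.9% of all features. Among the 716 higher features, 280 (39.1%) had one below both, against 28.2% of all. Choosing features on the mock libraries at 80 min favours such values. Mock libraries at 40 and 160 min were therefore used as the control, a choice made after the data were seen. Against their mean, 701 of the 716 were above 0, as were 8469 of all 17561 features. The threshold was passed as higher by 556 of the 716 and by 7.85% of all features. The median log2 difference of the 716 was 0.92. Of the 323, 311 were below 0 (9084 of all were) and 157 passed as lower (3.35% of all did), with a median of -0.59. The same 2 ABA libraries enter both comparisons.

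Far fewer features were called 40 min earlier, and most of the increases were called again at 160 min. At 40 min, where 23 features (0.131%) were called in all, 22 of the 716 higher features were called higher (22, or 0.125%, of all features tested). The median log2 fold change of the 716 was 0.17 there. Of them, 542 (75.7%) had a log2 fold change above 0, against 48.8% of all features tested. None of the 323 lower features was called lower there (0.00569% of all features were). By the test of the difference itself, the ABA effect was more positive at 80 than at 40 min for 97 features (0.552% of those tested) and more negative for 18 (0.102%). Together these were 115 features (0.655%). Of the 97, 95 were among the 716, and all 18 were among the 323, which share the 80 min libraries with this test. These counts rested on single libraries: the total was 33, 26, 76 and 51 without mock replicate 1, ABA replicate 1, mock replicate 2 and ABA replicate 2 at 40 min. Leaving out mock replicate 1 at 80 min gave 338, and mock replicate 2 gave 55. Scaling to library size only gave 29 more positive and 11 more negative, with the median over all features at -0.14.

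At 160 min, in libraries that had no part in choosing the features, 466 of the 716 (65.1%) were called higher against 8.55% of all features tested, and 5 were called lower. Their median log2 fold change was 0.93, against 1.01 at 80 min. Of the 323, 125 (38.7%) were called lower at 160 min against 5.06% of all, with a median of -0.49 in place of -0.88. Between 80 and 160 min the ABA effect differed for 137 features (0.780% of those tested), 83 more positive (0.473%) and 54 more negative (0.307%). Of the 716 higher features, 17 were more positive later and 12 less, and of the 323 lower ones 4 were less negative later. That total also rested on single libraries. It was 629, 337, 39 and 33 without mock replicate 1, ABA replicate 1, mock replicate 2 and ABA replicate 2 at 80 min. Among the libraries at 160 min, leaving out ABA replicate 1 gave 2, ABA replicate 2 gave 23 and mock replicate 2 gave 10. Scaled to library size only, 36 were more positive and 15 more negative.

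Over the other 5 harvests, 358 (50%) of the higher features were called higher in at least 3, against 6.71% of all features tested, and 110 (15.4%) in none, against 66.5% of all. Of the lower features, 101 (31.3%) were called lower in at least 3, against 6.76% of all, and 103 (31.9%) in none, against 69.2% of all. A call missed at another harvest does not show that the effect differed there. A call in the opposite direction at another harvest occurred for 157 of the 716 (21.9%, against 30.8% of all features called lower at any of them) and for 77 of the 323 (23.8%, against 33.5% of all called higher). This was most often at 1280 min, when 139 of the 716 were called lower (22.2% of all features were) and 325 higher (23.3% of all were). Leaves harvested at 320 min or later had been sprayed again.

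The number of calls depended on single libraries. Without mock replicate 1, 1141 features were higher and 568 lower, and without mock replicate 2 the numbers were 368 and 127. Leaving out ABA replicate 1 gave 496 and 212, and leaving out ABA replicate 2 gave 447 and 123. Called in these 4 fits and in the fit to all libraries were 260 higher features, 203 of them at least 2-fold, and 48 lower ones, 36 of them at least 2-fold. In this common set, 66.9% of the higher features were highest in mock leaves at 1280 min, against 31.4% of all features tested. Of its lower features, 50% were lowest then, against 31.6% of all. The set held KMT19353, KMS95705 and KMT00848. No feature called with all libraries was called in the opposite direction in any of the 4 fits. The groups did not overlap in any called feature, so leaving out 1 library could hardly reverse a direction. A fit to the 4 libraries at 80 min alone called 249 higher and 87 lower.

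**Figure D5:**
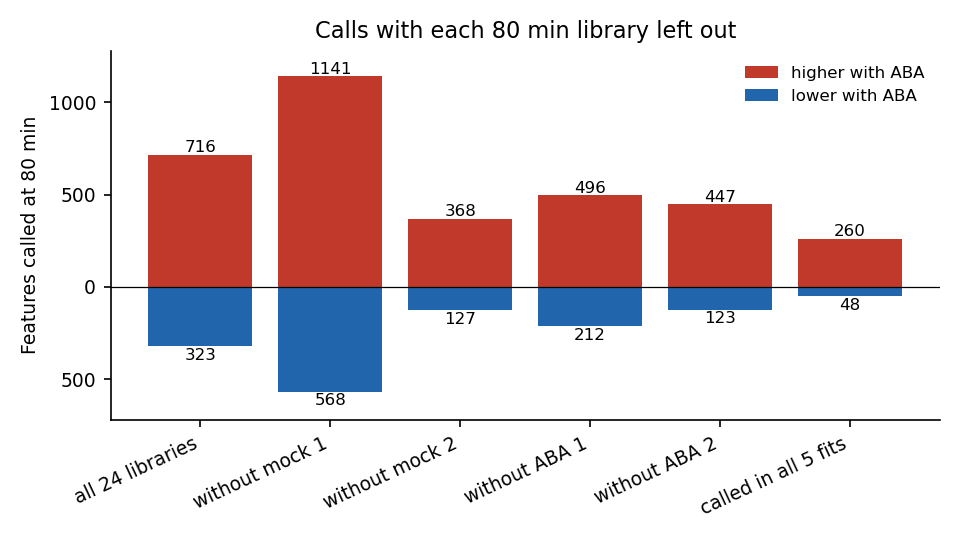
Bars show the number of features called higher (upwards, red) and lower (downwards, blue) at 80 min with all libraries, without each of the 4 libraries in turn, and in all 5 fits together. The numbers run from 368 to 1141 higher and 123 to 568 lower among the fits with 1 library left out, and 260 and 48 are common to all 5.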

How the data were processed

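Polyadenylated leaf RNA was sequenced as stranded, single-read libraries, per the labels' protocols. Each library has a list of raw counts for its features, as the authors deposited it, and unlisted features were taken as 0. CASAVA, Trimmomatic and DESeq2 are named in the submitters' processing notes. Aligner, counter, reference and use of strand: not given in the sources used here. Near-identical or overlapping features may therefore share reads.

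Of 20617 features, 17561 passed filterByExpr with the groups as given and a minimum count of 10. Counts were scaled with TMM (factors 0.75 to 0.84 at 80 min, 0.66 to 1.70 overall) and fitted in R 4.3.3 with edgeR 4.0.16 as a robust quasi-likelihood model of 12 group means over 24 libraries, leaving 12 residual degrees of freedom. The common biological coefficient of variation was 15.7%. Tests were two-sided F-tests with Benjamini-Hochberg adjustment over all 17561 features. Each SE is the log2 fold change divided by the root of F. Library distances and positions used log2 CPM with a prior count of 2. The fit was tested on simulated data.

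The comparison, classes and tests were chosen with earlier results of these data known. Named are the 2 called features with the largest gain and the 2 with the largest loss in mean CPM, provided the groups did not overlap. Alternatives covered scaling (RLE, library size), filters, threshold, DESeq2 1.42.0, subsets of libraries, a replicate block and leaving out single libraries. Each test was repeated without each library of the groups it compared, but not without the others that fed the estimate of spread. The lane of each library was not known, and batches were not examined. DESeq2 gave no adjusted p for 681 features.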

Additional observations from a re-analysis of the deposited data

Results flagged for a closer look

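Differences of the ABA effect between harvests were picked out because the difference itself passed its test. By edgeR's interaction test, the effect at 80 min differed from that at 40 min for 115 features (0.655% of those tested). From that at 160 min it differed for 137 features (0.780%). Both counts depended on single libraries, and with an adjusted p below 0.01 they were 31 and 7. Among the named features, the effect of KMT19353 was larger at 80 than at 40 min by 1.74 on the log2 scale (edgeR adjusted p = 0.0353). That of KMS95705 was larger by 1.40 (edgeR adjusted p = 0.00403). Both were named for their large gain at 80 min and for groups that did not overlap, which favours a larger effect there. Groups of 2 libraries were too small to examine single libraries for outlying values.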

How the results depend on the processing

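RLE factors and both expression filters left the numbers of calls within 1.5 times. No feature called at 80 min was called in the opposite direction under any alternative, but all of them reused ABA libraries of 80 min. With an adjusted p below 0.01, 449 features were called at 80 min (351 higher, 98 lower, 59 of these at least 2-fold), 31 and 7 differed from 40 and 160 min, and 2609 differed between mock leaves at 40 and 160 min. Library size alone gave 678 calls at 80 min (458 higher), 40 and 51 differences from 40 and 160 min, and 8502 between the mock harvests. Under it the summed log2 ratio at 40 min was 0.30 in place of 0.19 for the higher features, and 0.03 in place of -0.07 for the lower ones, a change of sign within the spread of the libraries. DESeq2 called 1391 features at 80 min and gave 229 and 509 differences from 40 and 160 min. A fit to 80 min alone called 336 (249 higher, 87 lower, 83 of these at least 2-fold), and a fit to the first 3 harvests gave 69 differences from 40 min. Mock leaves at 40 and 160 min as control, chosen after seeing the data, gave 1968 (1379 higher, 589 lower). Abundance classes from mock at 80 min left 0 calls at 1000 CPM or more. The cause of these shifts was not tested.

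Replicate numbers marked no large shift shared by ABA and mock plants. The replicate differences of ABA and mock correlated at -0.1 at 80 min and between -0.102 and 0.0989 over the harvests. Whether plants were handled in pairs cannot be told from this. A replicate block within harvests called 764 features at 80 min (567 higher, 197 lower), with 42 and 70 differences from 40 and 160 min. The crossed pairing at 80 min, added after seeing the data, called 834, with 52 differences from 40 min.

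Leaving out 1 library at a time gave 495 to 1709 calls at 80 min (368 to 1141 higher, 123 to 568 lower), of which 245 to 465 higher and 74 to 214 lower were at least 2-fold. It gave 26 to 338 differences from 40 min, 2 to 629 from 160 min, 2508 to 3720 between mock at 40 and 160 min and 12946 to 13576 along the mock course. The lone remaining library of a group is assumed there to vary like the other groups. The median standard error of a log2 fold change was 0.71 under 1 CPM and 0.30 between 1 and 10 CPM, against 0.17 from 10 to 1000 CPM, and counting error and the spread of n = 2 plants were not separated.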
